A study of Homo sapiens with 6 samples.

Results

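The genes described are 10 that encode parts of the desmosome, namely the cadherin genes DSG2, DSC2 and DSC3, the armadillo protein genes JUP, PKP2, PKP3 and PKP4, and the plakin genes DSP, PPL and EVPL. They were taken by symbol from the 16200 genes of the deposited table; the rule is a list of symbols and uses no measured value, though it was drawn up with earlier results of these data known. The cells were RBE, an established human line of cholangiocarcinoma, a cancer of the bile ducts, whose polyadenylated RNA was sequenced. The 3 sgKCNQ3 libraries are named after a guide against KCNQ3, a potassium channel gene, in a study that speaks of KCNQ3 knockdown, and the 3 NC libraries are the group they were set against. The sources used here give neither the enzyme that the guide directed nor whether cells were 1 clone or a pool. No label ties the libraries to separate cultures, and the p-values therefore rest on a spread between libraries that may be technical only.

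Desmosomes are spot-like junctions that couple the keratin filaments of neighbouring epithelial cells, and through them tissues resist mechanical stress. Desmogleins and desmocollins cross the membrane and bind their partners on the next cell, plakoglobin and the plakophilins attach to the cadherin tails, and desmoplakin links this plaque to keratin. Simple epithelia such as the bile duct use mainly desmoglein 2 and desmocollin 2, whereas other isoforms are typical of stratified epithelium such as the epidermis. Loss of desmosomal proteins is a usual part of the change from an epithelial to a mesenchymal cell state, which the depositors name among their points of interest.

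Total estimated counts were 15601283 to 16089500 per library. KCNQ3 itself had 222, 206 and 191 counts in sgKCNQ3 libraries, against 256, 257 and 252 in NC libraries (log2 fold change -0.33, SE 0.0841, edgeR adjusted p 0.00446). KCNQ3 was not called on log2(TPM + 1) or log2(TPM + 0.1), and over all alternatives its log2 difference lay between -0.48 and -0.15. Cholangiocyte markers were present, with KRT7 at 1678, 1725 and 1739 TPM in sgKCNQ3 libraries, against 1563, 1597 and 1580 TPM in NC libraries, where TPM is a share of transcripts corrected for length. The summed level of 8 such markers was 3812 to 4005 CPM (counts scaled by library, not by length) in sgKCNQ3 and 3473 to 3589 CPM in NC, with CFTR at 2 or 3 counts in every library. Of 10 keratinocyte markers 8 were in the table, and their sum was 103 to 110 CPM in sgKCNQ3 and 117 to 128 CPM in NC, nearly all of it KRT10, SFN and KRT15, while KRT5 and KRT14 held 0 or 1 count. Of 10 fibroblast, endothelial and leukocyte markers 9 were in the table, and they summed to 7.13 to 7.92 CPM in sgKCNQ3 and 5.90 to 7.03 CPM in NC. The part of these shifts in the results was not tested.

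The desmosome genes were mostly higher in sgKCNQ3 libraries, by modest amounts. Of the 10 genes, 9 passed the filter on low counts and EVPL did not. Among those 9, DSP, DSG2, DSC2, DSC3, JUP and PPL rose, which is 6 called at an edgeR quasi-likelihood adjusted p under 0.05, against 14% of all 12565 tested genes called higher. DSC2 had the largest change, a rise of 52.6%, and JUP the smallest of the 6, a rise of 16.4%. No tested member was called lower by edgeR, DESeq2 or limma-voom, and at an unadjusted edgeR p under 0.05 the number lower was 0. Genes called lower made up 15.1% of all tested genes, and genes called in either direction 29.1%. The median log2 fold change of the 9 tested genes was 0.33, beside -0.01 over all tested genes. A bulk measurement cannot tell more RNA per cell from more cells that hold it.

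**Figure D1:**
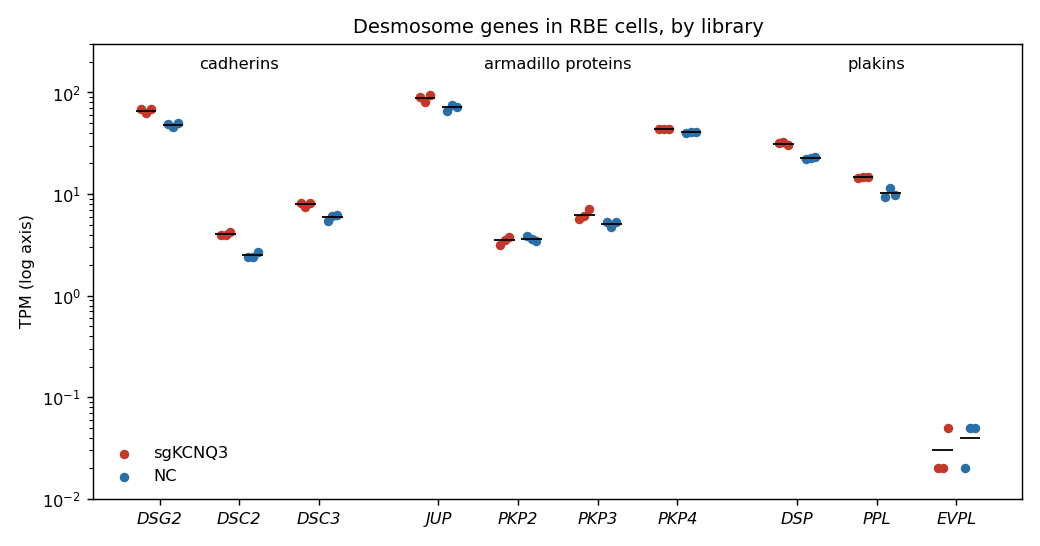
TPM on a log axis for each desmosome gene and library, with 3 points per group, sgKCNQ3 in red on the left and NC in blue on the right, and a black bar at the group mean. DSP, DSG2, DSC2, DSC3, JUP and PPL show every sgKCNQ3 library above every NC library, as do PKP3 and PKP4, which were not called. EVPL lies near the bottom of the axis in both groups.

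The sequence before the start of 3 genes that rose together is shown because they had the largest changes among the members found in the RefSeq promoter table (GRCh38.p14), which held 6 of the 10 genes. Each window holds the 250 bases before an annotated RefSeq start, 5′ to 3′ on the gene's strand. The 3 windows shown each run partly into the GENCODE bounds of their gene, which begin farther upstream, so they are not wholly outside the gene. The DSP window is chr6:7541421-7541670 (plus strand), the DSG2 window chr18:31497927-31498176 (plus strand) and the DSC2 window, the farther upstream of 2 annotated starts, chr18:31102422-31102671 (minus strand). Capitals mark GGGCGG, a GC box bound by SP factors, and CACCTG, the E box variant that ZEB and SNAI repressors are known to bind, each on either strand.
DSP: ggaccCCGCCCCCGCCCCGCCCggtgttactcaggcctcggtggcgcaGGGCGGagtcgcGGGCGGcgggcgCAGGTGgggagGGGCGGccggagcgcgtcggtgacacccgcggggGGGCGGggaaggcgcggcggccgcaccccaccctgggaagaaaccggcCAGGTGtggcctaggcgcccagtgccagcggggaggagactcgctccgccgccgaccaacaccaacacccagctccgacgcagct
DSG2: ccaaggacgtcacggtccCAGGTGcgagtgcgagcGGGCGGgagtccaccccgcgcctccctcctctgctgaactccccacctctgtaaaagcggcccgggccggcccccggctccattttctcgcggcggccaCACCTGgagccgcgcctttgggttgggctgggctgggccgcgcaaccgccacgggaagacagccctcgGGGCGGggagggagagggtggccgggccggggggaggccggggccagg
DSC2: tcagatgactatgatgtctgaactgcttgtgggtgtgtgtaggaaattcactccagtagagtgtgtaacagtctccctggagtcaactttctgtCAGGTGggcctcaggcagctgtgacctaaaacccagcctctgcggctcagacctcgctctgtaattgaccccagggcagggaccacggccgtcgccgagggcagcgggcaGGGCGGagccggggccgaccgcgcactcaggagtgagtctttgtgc

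The DSP window held 7 GC box matches, among them a pair that overlaps, and 2 CACCTG matches. The DSG2 window held 2 of each, and the DSC2 window shown 1 of each. The other DSC2 window, at chr18:31101261-31101510 and wholly inside the GENCODE bounds of DSC2, held 2 GC boxes and 0 CACCTG matches. Over all 35116 windows of the same length in the table, 42.6% held a GC box and 17.5% held CACCTG, so neither set of letters is rare. Shares over all windows are not matched for GC content, whose median over them was 58.0%. GC content was 78.0% in the DSP window, 75.2% in the DSG2 window and 59.6% in the DSC2 window shown. JUP has 2 annotated windows, with 2 CACCTG matches in one and 0 in the other. The window of DSC3, which also rose, held neither motif, and those of PKP4, which was not called, held GC boxes but no CACCTG. AACNNGTT, the core letters of Grainyhead-like sites, CCGGAA, a core of ETS sites, and TATAAA were each found in 0 of the 9 member windows, beside 3.0%, 14.5% and 10.7% of all windows. A match is a description of letters and shows neither binding nor a cause.

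Desmosomal cadherins form the adhesive part of the junction, and all 3 measured here rose. Their genes lie in a 559 kb stretch of chromosome 18 with 7 protein-coding cadherin genes (GENCODE release 29, GRCh38), with DSC3 at chr18:30990008-31042815, DSC2 at chr18:31058840-31102522 and DSG2 at chr18:31498043-31549008. DSG2, the desmoglein found in every desmosome-bearing tissue, had 68.05, 62.4 and 68.1 TPM in sgKCNQ3 libraries 1 to 3, against 48.4, 45.4 and 49.8 TPM in NC libraries 1 to 3. The groups did not overlap, and the log2 fold change of DSG2 was 0.35 (SE 0.0404, edgeR adjusted p 6.02e-07).

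DSC2 encodes desmocollin 2, its usual partner in simple epithelium. It had 3.97, 3.97 and 4.22 TPM in sgKCNQ3 libraries, against 2.41, 2.38 and 2.67 TPM in NC libraries. Every sgKCNQ3 library thus held more DSC2 than every NC library, with counts of 201, 196 and 205 in sgKCNQ3 and 126, 123 and 139 in NC. The log2 fold change of DSC2 was 0.61 (SE 0.0956, edgeR adjusted p 3.41e-05), larger in size than that of 97.2% of all tested genes.

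DSC3 encodes desmocollin 3, best known from the basal layers of stratified epithelium. It had 8.16, 7.51 and 8.25 TPM in sgKCNQ3 libraries, against 5.48, 6.06 and 6.25 TPM in NC libraries. The groups did not overlap (log2 fold change 0.33, SE 0.0628, edgeR adjusted p 2.89e-04). With each library's trends over transcript length and GC content removed, the log2 fold change of DSC3 was 0.21 (adjusted p 0.0156), the one called member moved by more than 1.5 times.

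In the same stretch of chromosome 18, DSG3 and DSG4, the desmogleins of epidermis and hair, were close to the limit of detection. DSG3 held 3.96, 2.23 and 1.0 estimated counts in sgKCNQ3 and 0.0, 0.0 and 1.0 in NC, and DSG4 held 0.0 in each sgKCNQ3 library and at most 1.0 in NC. Both lie under the filter, so that no fold is given. DSG1 and DSC1 were absent from the genes of the deposited table, so neither has a value here. DSG2 and DSC2 each overlap an antisense gene, and since no source used here says how strand was handled, reads of such partners cannot be told apart from theirs.

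Armadillo proteins attach to the cadherin tails, and of these JUP alone passed the test. JUP (chr17:41754604-41786931) encodes plakoglobin, a close relative of beta-catenin that sits in desmosomes and adherens junctions. It had the highest TPM of the 10 genes in both groups, with 89.3, 80.5 and 94.2 in sgKCNQ3 libraries, against 66.3, 75.2 and 72.7 in NC libraries. Every sgKCNQ3 library was above every NC library, though the lowest sgKCNQ3 library and the highest NC library lay close together. Its log2 fold change was 0.22 (SE 0.0472, edgeR adjusted p 0.00111).

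The plakophilins bring desmoplakin to the plaque and cluster it there, and none of the 3 was called. PKP2 (chr12:32790745-32896840), the plakophilin of simple epithelium and heart, had 3.17, 3.57 and 3.74 TPM in sgKCNQ3 libraries, against 3.84, 3.64 and 3.42 TPM in NC libraries. The groups overlapped, and the log2 fold change was -0.15 with a 95% interval of -0.36 to 0.07 (edgeR adjusted p 0.302). PKP3 (chr11:392614-404908), which is found in most epithelia, had 5.63, 6.04 and 7.21 TPM in sgKCNQ3 libraries, against 5.32, 4.69 and 5.3 TPM in NC libraries. The groups did not overlap in TPM but overlapped in CPM, and sgKCNQ3 replicate 3 stood highest of all 6 libraries. The log2 fold change of PKP3 was 0.21 with an interval of -0.01 to 0.44 (edgeR adjusted p 0.142), and once length and GC trends were taken out it was 0.29 and called (edgeR adjusted p 0.0469). Counts of PKP2 and PKP3 were low, at 124 to 180 and at 125 to 157 in sgKCNQ3 and NC libraries, and their SE values were 0.104 and 0.108, and the interval of PKP3 includes a change as large as that of DSG2.

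PKP4 (chr2:158456964-158682879) encodes p0071, an armadillo protein of the p120 catenin group found at both desmosomes and adherens junctions. It had 43.7, 43.5 and 44.2 TPM in sgKCNQ3 libraries, against 40.3, 40.5 and 40.8 TPM in NC libraries. In CPM the groups did not overlap either, but the difference was small. Its log2 fold change was 0.05 with an interval of -0.03 to 0.13 (edgeR adjusted p 0.387), and -0.02 once length and GC trends were taken out. PKP4 had 1742, 1764 and 1766 counts in sgKCNQ3 and 1649, 1693 and 1669 in NC, and the upper bound of 0.13 lay under the lower bounds of DSP, DSG2, DSC2, DSC3 and PPL. In CPM, 7 of the 9 tested genes had groups that did not overlap with sgKCNQ3 higher, beside 20.4% of all tested genes, and 41.7% did not overlap in either direction.

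**Figure D2:**
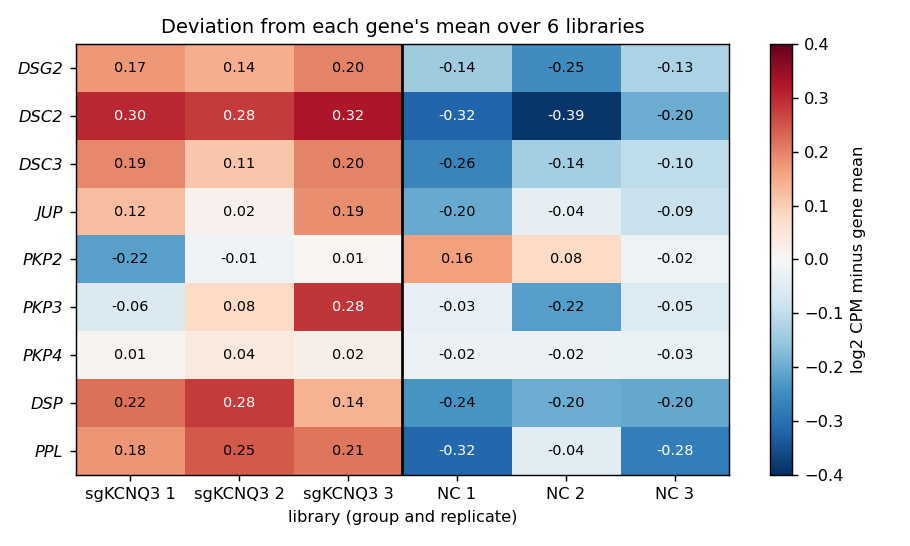
Log2 CPM of the 9 tested desmosome genes in each library minus the mean of that gene over the 6 libraries, with sgKCNQ3 libraries left and NC libraries right of the black line. Red cells lie above the mean of the gene and blue cells below it. The rows of DSG2, DSC2, DSC3, JUP, DSP and PPL lie above it on the left and below it on the right. The row of PKP4 does so too, by small amounts. JUP is near its mean in sgKCNQ3 replicate 2 (0.02) and NC replicate 2 (-0.04). PKP2 has its lowest value, -0.22, in sgKCNQ3 replicate 1.

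Plakins anchor the plaque to keratin, and the pair that was expressed rose. DSP (chr6:7541575-7586717) encodes desmoplakin, without which desmosomes do not hold keratin. It had 2683, 2774 and 2545 counts in sgKCNQ3 libraries, against 1895, 1999 and 1967 in NC libraries. In TPM these were 31.6, 32.2 and 30.3 in sgKCNQ3 and 21.96, 22.9 and 23.1 in NC. The groups stood well apart, and the log2 fold change of DSP was 0.43 (SE 0.0428, edgeR adjusted p 5.17e-08), a rise of 34.3%.

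PPL (chr16:4882507-4960741) encodes periplakin, a linker of keratin to the plasma membrane that also belongs to the cornified envelope of the epidermis. It had 14.35, 14.7 and 14.9 TPM in sgKCNQ3 libraries, against 9.46, 11.5 and 9.87 TPM in NC libraries. The groups did not overlap, and NC replicate 2 was the highest of its group. The log2 fold change of PPL was 0.42 (SE 0.0618, edgeR adjusted p 1.59e-05). SEC14L5 overlaps PPL on the opposite strand and averaged 0.755 CPM in sgKCNQ3 and 0.855 CPM in NC. EVPL (chr17:76004502-76027452), which encodes envoplakin, the partner of periplakin in the epidermis, held 1, 1 and 3 counts in sgKCNQ3 libraries and 1, 3 and 3 in NC libraries. It was near the limit of detection in both groups and no fold is given.

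**Figure D3:**
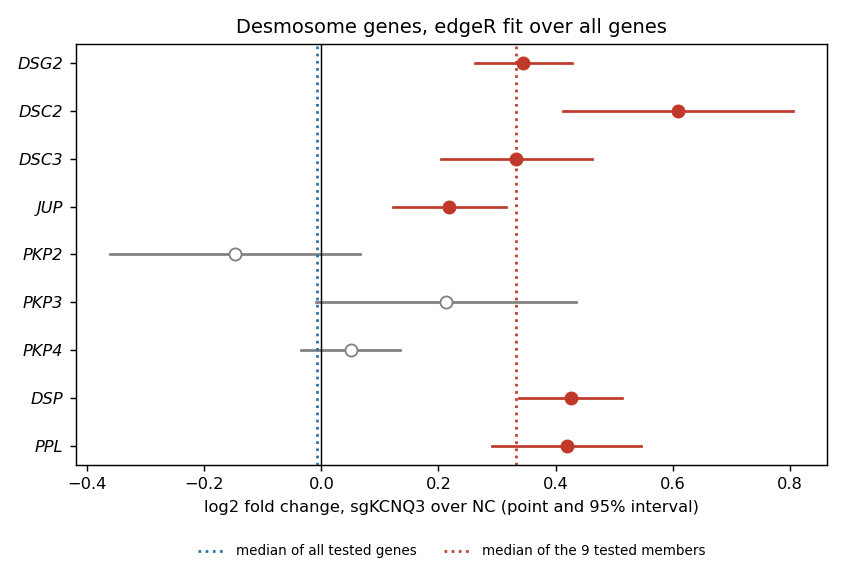
Log2 fold change of sgKCNQ3 over NC for the 9 tested desmosome genes, with the point estimate and its 95% interval from the edgeR fit; filled red points are called and open grey points are not. Dotted lines mark the median of the 9 genes (0.33) and of all tested genes (-0.01).

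Set side by side per transcript length, the order of levels was nearly the same in both groups. In sgKCNQ3 it ran JUP (88.0 ± 6.95 TPM), DSG2 (66.2 ± 3.28), PKP4 (43.8 ± 0.337), DSP (31.4 ± 0.974), PPL (14.6 ± 0.261), DSC3 (7.97 ± 0.404), PKP3 (6.29 ± 0.820), DSC2 (4.05 ± 0.144), PKP2 (3.49 ± 0.293) and EVPL (SD, n = 3 each). In NC it ran JUP (71.4 ± 4.62 TPM), DSG2 (47.9 ± 2.25), PKP4 (40.5 ± 0.225), DSP (22.6 ± 0.605), PPL (10.3 ± 1.08), DSC3 (5.93 ± 0.401), PKP3 (5.10 ± 0.358), PKP2 (3.63 ± 0.210), DSC2 (2.49 ± 0.159) and EVPL (SD, n = 3 each). DSC2 thus stood above PKP2 in sgKCNQ3 and below it in NC, and within each group no neighbours in the order overlapped over the 3 libraries. TPM also depends on the length that the authors' counting assigned to each gene.

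By class, the cadherins summed to 80.2, 73.9 and 80.6 TPM in sgKCNQ3 libraries, against 56.3, 53.8 and 58.7 TPM in NC libraries. The plakins summed to 45.95, 46.9 and 45.2 TPM in sgKCNQ3, against 31.4, 34.4 and 33.0 TPM in NC, and the plakophilins to 52.5, 53.1 and 55.1 TPM in sgKCNQ3, against 49.5, 48.8 and 49.5 TPM in NC. In each class every sgKCNQ3 sum in TPM lay above every NC sum. The ratio of group means was 1.39, 1.40 and 1.09 for cadherins, plakins and plakophilins. TPM leaned toward sgKCNQ3 over all tested genes, whose median log2 fold change was 0.065 on log2(TPM + 1), beside -0.01 in the edgeR fit. The sums are not corrected for this, and no plakophilin was called in that fit.

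The balance between classes was compared within libraries, where no scaling between libraries enters. The log2 ratio of cadherin to plakophilin TPM averaged 0.54 ± 0.0672 in sgKCNQ3 and 0.19 ± 0.0532 in NC (SD, n = 3 each), and that of plakins to plakophilins averaged -0.22 ± 0.0583 in sgKCNQ3 and -0.58 ± 0.0750 in NC. Neither ratio overlapped between groups, with a two-sided exact permutation p of 0.1, the smallest that 3 against 3 libraries allow. The log2 ratio of plakins to cadherins averaged -0.76 ± 0.0958 in sgKCNQ3 and -0.77 ± 0.111 in NC (exact permutation p 0.9). Of 18 such shares and ratios none could pass a threshold of 0.05 in this design, and the smallest adjusted p was 0.36.

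Within the cadherins, DSG2 made up 84.6% ± 0.219 of the TPM in sgKCNQ3 and 85.03% ± 0.862 in NC (SD, n = 3 each). DSC2 made up 4.95%, 5.37% and 5.24% in sgKCNQ3 libraries, against 4.28%, 4.42% and 4.55% in NC libraries, with no overlap (exact permutation p 0.1). DSC3 made up 10.2% ± 0.0383 in sgKCNQ3 and 10.5% ± 0.771 in NC (exact permutation p 0.6). Among the plakophilins, PKP4 took 81.8% ± 1.56 in sgKCNQ3 and 82.3% ± 0.736 in NC, so that their sum mostly follows PKP4. PKP2 took 6.04%, 6.72% and 6.79% in sgKCNQ3 libraries, against 7.76%, 7.45% and 6.91% in NC libraries, with no overlap (exact permutation p 0.1). Among the plakins, DSP took 68.1% ± 0.962 in sgKCNQ3 and 68.7% ± 2.00 in NC.

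Long transcripts were relatively higher in the sgKCNQ3 libraries over all genes, and the members differ in length. The longest coding transcript (GENCODE release 29) has 12325 bases for DSC2, 9796 for DSP, 6978 for DSC3, 6238 for PPL, 5831 for DSG2 and 3497 for JUP, the genes that rose. It has 6614 bases for EVPL, 5777 for PKP4, 4302 for PKP2 and 2809 for PKP3. The length that deposited counts and FPKM imply ranks the genes that rose differently. It was 4968 bases for DSC2, 8385 for DSP, 7308 for DSC3, 5950 for PPL, 5349 for DSG2 and 3090 for JUP. Over tested genes, Spearman's rho of the deviation of a library with transcript length was 0.275, 0.210 and 0.248 in sgKCNQ3 libraries and -0.174, -0.329 and -0.238 in NC libraries, genes not being independent replicates. The part of length in the members' changes was not tested beyond removing the trend. With length and GC trends removed, the log2 fold changes were 0.31 for DSP, 0.25 for DSG2, 0.45 for DSC2, 0.38 for PPL and 0.27 for JUP, and these 5 genes and DSC3 were still called. Genes called higher were then 10.5% of all tested genes. With the trend over the implied length removed instead, the log2 fold changes were 0.53 for DSC2, 0.29 for DSP and 0.21 for DSC3. They were 0.32 for PPL, 0.26 for DSG2 and 0.22 for JUP.

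**Figure D4:**
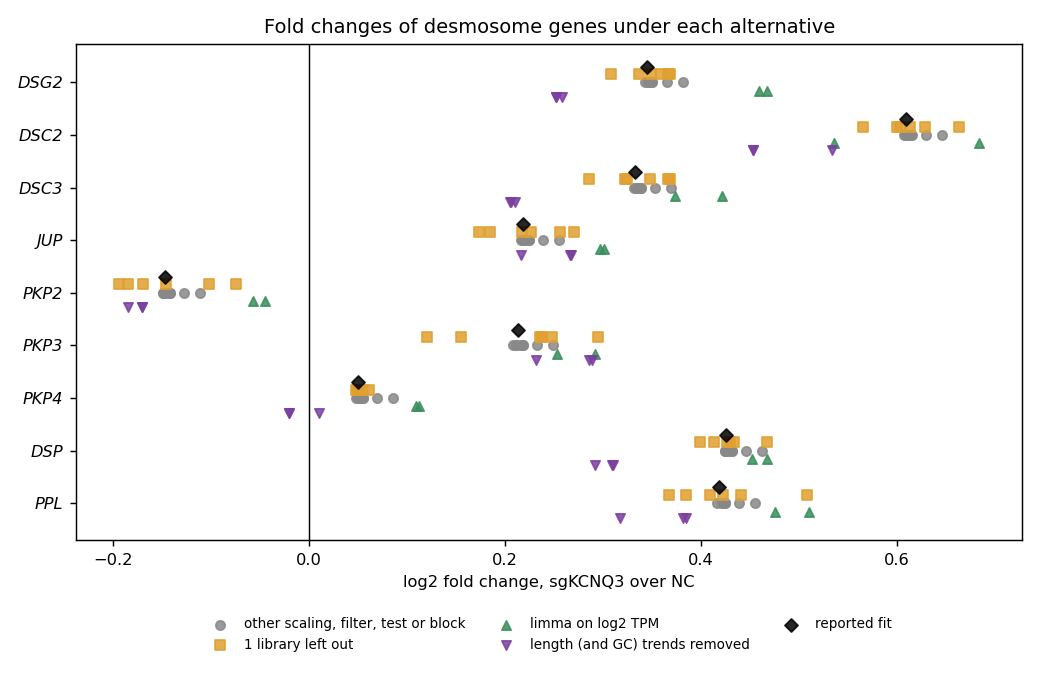
Log2 fold change of sgKCNQ3 over NC for the 9 tested desmosome genes as reported (black) and under each alternative, by kind. The lowest value of DSP, DSG2, DSC2, DSC3 and PPL is one with length (or length and GC) trends removed (purple) and lies above 0, while PKP4 has values on both sides of 0.

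Other junction and filament genes gave a mixed picture beside the desmosome genes, and their counts stand beside 14% of all tested genes called higher and 15.1% called lower. PERP, a membrane protein of desmosomes and the one other desmosome gene that passed the filter, was named after its value was seen and was not called (log2 fold change 0.10, edgeR adjusted p 0.0526). With library size as the only scaling it was called higher (log2 fold change 0.14). PKP1 held 0 to 5 counts per library. Of 6 other plakins and cytolinkers 2 were called, both higher, a share near that of all genes called in either direction (29.1%). They were DST (0.30, edgeR adjusted p 2.27e-06), a plakin of hemidesmosomes and the cytoskeleton, and MACF1 (0.15, adjusted p 0.00212), a linker of actin and microtubules. With length and GC trends removed 1 was called higher and 1 lower, DST at 0.19 and PLEC, the plectin gene, at -0.13 (edgeR adjusted p 0.00245). MACF1 lost its call once length and GC trends were taken out (0.07, adjusted p 0.114), and with the trend over the length that deposited counts and FPKM imply removed its direction turned (-0.01).

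Of 13 adherens junction genes, 4 were called higher and 2 lower, with a median log2 fold change of 0.01, and with length and GC trends removed 2 were called higher and 1 lower. CDH1, the E-cadherin gene, had 1.58, 1.27 and 1.54 TPM in sgKCNQ3 libraries, against 0.81, 0.80 and 0.68 TPM in NC libraries (log2 fold change 0.85, edgeR adjusted p 4.81e-04). The alternatives gave 0.48 to 0.94 for CDH1, all called. CDH2, the N-cadherin gene, was named after its value was seen, and averaged 82.6 ± 2.05 TPM in sgKCNQ3 and 77.0 ± 2.28 TPM in NC (SD, n = 3 each; log2 fold change 0.01, adjusted p 0.890, and -0.02 to 0.10 over the alternatives). Per length, DSG2 therefore lay far above CDH1 and nearer to CDH2 in these cells. AFDN (0.27, adjusted p 8.26e-05), the actin linker afadin, rose (0.16 with length and GC trends removed, still called), and the nectin gene NECTIN2 fell (-0.31, adjusted p 4.47e-05).

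Of 5 tested keratins of simple epithelium, the filaments that desmosomes hold, 2 were called, both higher. That count was 3 with length and GC trends removed, where KRT7 was added (0.13, edgeR adjusted p 0.00421), and 4 on log2(TPM + 1), with none lower in either. KRT8 averaged 1094 ± 19.5 TPM in sgKCNQ3 and 847 ± 22.4 TPM in NC (SD, n = 3 each; log2 fold change 0.28, edgeR adjusted p 2.46e-06), and its partner KRT18 had 1019, 971 and 1012 TPM in sgKCNQ3 libraries, against 849, 862 and 838 TPM in NC libraries (0.16, adjusted p 0.00134). KRT8 and KRT18 were also on the list of cholangiocyte markers, of which 4 of 7 tested were called, all higher. That count was 5 with length and GC trends removed and 6 on log2(TPM + 1). Over all tested genes, 14%, 10.5% and 20.6% were called higher in the same order of settings. Of 7 hemidesmosome genes, which anchor keratin to the matrix, 2 were called higher and 4 lower, with a median of -0.18, and 1 higher and 4 lower with length and GC trends removed. CD151 (-0.23, adjusted p 4.03e-04, and -0.12 with those trends removed) and COL17A1 (-0.24, adjusted p 0.00277) fell, and both lost their calls on log2(TPM + 1), where 0 hemidesmosome genes were called lower.

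Calls among transcription factors of epithelial cells and repressors of epithelial genes went in both directions. Of 8 tested epithelial factors, 1 was called higher and 3 lower, and of 4 tested repressors 1 was called each way. Over all tested genes, 14% were called higher and 15.1% lower. ELF3, an ETS factor of epithelium, rose (0.65, edgeR adjusted p 1.74e-10), and KLF4 (-0.31, adjusted p 3.58e-06) and EHF (-0.15, adjusted p 0.00334) fell, EHF losing its call on log2(TPM + 1). GRHL1 averaged 1.01 CPM in sgKCNQ3 and 0.828 CPM in NC and was not called. Of 4 tested repressors, SNAI2 fell (-0.25, adjusted p 0.00642), losing its call on log2(TPM + 1), and TCF4 rose (0.48, adjusted p 0.0339), losing its call in 7 of 19 alternatives. ZEB1, named after its value was seen, was not called (0.11, adjusted p 0.138), with -0.01 to 0.21 over the alternatives and a smallest adjusted p of 0.0377, and SNAI1 held 1 to 6 counts per library.

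Of 15 genes known to act on desmosomes, 5 were called higher and 1 lower, with a median of 0.06, beside the 14% and 15.1% of all tested genes. With length and GC trends removed 3 were called higher and 2 lower. ADAM10, a protease that sheds desmoglein 2, rose (0.31, edgeR adjusted p 5.30e-06; 0.15 and still called with length and GC trends removed), as did ATP2A2, the calcium pump whose loss disturbs desmosomes in human skin (0.16, adjusted p 0.00131). ATP2A2 lost its call when the length trend was removed with the lengths that deposited counts and FPKM imply. PRMT1, an arginine methyltransferase that acts on desmoplakin, fell (-0.17, adjusted p 0.00225), and lost its call in 4 of 19 alternatives. EGFR, named after its value was seen, was not called (-0.04, adjusted p 0.350), but was called lower with length and GC trends removed (-0.16, adjusted p 2.94e-04), and its sign turned in 2 of 19 alternatives. Among markers of other tissues rich in desmosomes, SFN of keratinocytes fell (-0.38, edgeR adjusted p 1.77e-04). RYR2 of heart muscle was higher (0.30, edgeR adjusted p 0.00783), losing its call in 5 of 19 alternatives. RYR2 alone of 6 listed heart muscle markers could be tested, and TNNT2, MYH7 and ACTN2 held 0 to 2 counts per library.

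The genes whose profile over the 6 libraries lay nearest to that of DSP were TXNIP, ASH1L and LBH, out of 6228 other genes whose log2 CPM averaged at least 5. The measure was the root mean square difference of log2 CPM after each gene was centred on its mean, and it came to 0.0315 for TXNIP, 0.0357 for ASH1L and 0.0400 for LBH. TXNIP encodes an inhibitor of thioredoxin, ASH1L a histone methyltransferase and LBH a transcriptional cofactor. Their log2 fold changes were 0.40, 0.39 and 0.42 in the order given. Since the groups are the main difference among these libraries, any gene that rose by a like amount with little spread comes out near DSP.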

How the data were processed

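The 3 sgKCNQ3 and 3 NC libraries were made from poly(A)-selected, fragmented RNA by random-primed reverse transcription, per the labels' protocols. Per the submitters' processing notes the genome was GRCh38.p13. No source used here names the aligner, the counter or the strand setting. The authors deposited estimated counts (expected counts) without scaling, of which 5.52% to 6.33% per library were not whole, and TPM and FPKM values per the file headers. Untested columns deposited beside these were a signal per library (counts over 1 factor) and group means, among them a whole-number score.

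Counts were rounded and tested with edgeR 4.0.16 (R 4.3.3): filterByExpr (minimum count 10; 12565 genes kept, 3635 removed), TMM factors, robust quasi-likelihood F tests and Benjamini-Hochberg adjustment over all tested genes at 0.05. SE is the size of the log2 fold change over the square root of F, and 95% intervals use the degrees of freedom of the fit. The statistical script was tested on simulated counts. Of the called genes 48.2% were higher, against 64.5% with library size alone and 80.8% with limma 3.58.1 on log2(TPM + 1), pseudocount 1. FPKM sums were 630332 to 642515 in sgKCNQ3 and 656809 to 668732 in NC. Length and GC came from the longest coding transcript in GENCODE release 29 (16032 genes), and trends were natural splines with 5 degrees of freedom. Shares used two-sided exact permutation tests (scipy 1.17.1).

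Members and lists were chosen with earlier results of these data known. All 10 members, KCNQ3, up to 3 called genes per list by smallest p, and the 3 genes nearest to DSP were named, except items that are not reported here. Alternatives were DESeq2 1.42.0, limma-voom, scaling by RLE, by upper quartile or by library size, log2(TPM + 1) and log2(TPM + 0.1), no filter, at least 2 CPM in 3 libraries, a replicate block, length and GC trends removed, the block with those trends removed, and each library left out. A length trend from deposited counts and FPKM was added after the data were seen.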

Additional observations from a re-analysis of the deposited data

How the results depend on the processing

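DSP, DSG2, DSC2, DSC3, JUP and PPL kept their direction and their call in all 19 alternatives, and no member was called lower in any; 7 members were called with length and GC trends removed, where PKP3 was added, and 6 in each other alternative. Over the alternatives the log2 fold change ran from 0.29 to 0.47 for DSP, 0.25 to 0.47 for DSG2, 0.45 to 0.68 for DSC2, 0.21 to 0.42 for DSC3, 0.17 to 0.30 for JUP and 0.32 to 0.51 for PPL. Leaving out 1 library gave 6 called members each time and 2687 to 3471 called genes in all, against 3658; DESeq2 called 2448. PKP3, which was not called, had 0.12 without sgKCNQ3 replicate 3 and 0.29 without sgKCNQ3 replicate 1. PKP4 turned to -0.0208 with length and GC trends removed, and to -0.0207 with the replicate block as well; the cause was not tested.

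Deviations of same-numbered libraries from their group means had Pearson correlations of 0.0136, -0.0977 and 0.00776. Those of libraries with different numbers lay between -0.0800 and 0.0651. Deviations from a mean of 3 libraries constrain each other, so these values cannot show whether the numbers pair libraries, and the labels state no pairing. The replicate block called 3136 genes and 6 members. Small differences in class shares, in percentage points of sgKCNQ3 minus NC, changed sign. With read counts in place of TPM these were PKP4 (0.149, against -0.506), DSP (0.0598, against -0.624) and PPL (-0.0187, against 0.678). With 1 library left out the range was -0.774 to 0.0641 for DSG2, -0.764 to 0.00165 for DSC3 and -1.25 to 0.308 for PKP4. The cause was not tested. At 123 to 205 counts, depth limits DSC2, PKP2 and PKP3 most, and EVPL could not be compared.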
